A study of Canis lupus familiaris with 7 samples.

Results

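Wnt ligands, their receptors and their antagonists were examined in 7 primary canine osteosarcomas, malignant bone tumors of the dog. Members were chosen by gene name, and the choice was made with earlier results of these data known. Taken were noncontrol probes whose gene name began with WNT, FZD, SFRP, DKK, RSPO, DVL, AXIN or TCF7. Probes named LRP5, LRP6, LEF1, WIF1, FRZB, CTNNB1, APC, GSK3B, SOST, KREMEN1 or NKD2 were taken as well. This gave 46 genes of the 35483 gene names on the array, and 35 of them had a probe well above background on at least 3 arrays. RNA of each tumor was hybridized to 1 single-channel array. DLG2 codes for a membrane scaffold protein, and its status was taken from the labels. The DLG2 deleted group held 4 tumors from dogs of 6 to 9 years, and the DLG2 wild type group held 3 tumors from dogs of 8 to 12 years. No treatment is given in the labels, breeds differed between dogs, and each sample was whole tumor tissue. In such tissue, fewer cells of a type and less RNA per cell cannot be told apart.

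Wnt proteins are secreted ligands that bind Frizzled receptors (FZD) together with the co-receptors LRP5 and LRP6. In the canonical branch this binding acts through Dishevelled proteins (DVL) on a complex of AXIN1, APC and GSK3B, so that beta-catenin, the product of CTNNB1, escapes degradation and works with LEF1 and TCF factors in the nucleus. R-spondins (RSPO) strengthen the signal, SFRP proteins and WIF1 bind the ligands, and DKK1, DKK2 and sclerostin (SOST) block the co-receptors. Wnt signaling is a main driver of bone formation, and several of its antagonists are made by bone cells.

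Probe sequences with an open reading frame are shown for genes described below, because these stretches define what each value measured. No exon annotation was used. Capitals mark cysteine codons (TGT or TGC) in the reading frame that holds no internal stop codon, or the most cysteine codons where several frames are open. They are shown for WIF1, for the R-spondin RSPO3 and for the Wnt ligands, families rich in disulfide bonds. FZD10 was the receptor with the smallest p between the groups, and the probes of DKK3 and LEF1 are the ones set beside a brighter probe of the same gene below.
WIF1: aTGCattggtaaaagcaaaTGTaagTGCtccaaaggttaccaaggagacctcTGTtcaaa
RSPO3: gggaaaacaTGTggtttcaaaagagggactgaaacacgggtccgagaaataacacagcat
WNT5B: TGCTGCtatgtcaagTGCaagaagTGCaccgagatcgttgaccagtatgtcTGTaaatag
WNT10B: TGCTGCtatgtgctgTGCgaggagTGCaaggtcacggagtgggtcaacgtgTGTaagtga
WNT7B: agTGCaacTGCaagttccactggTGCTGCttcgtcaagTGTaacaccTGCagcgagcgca
FZD10: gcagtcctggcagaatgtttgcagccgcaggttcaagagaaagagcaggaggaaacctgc
DKK3: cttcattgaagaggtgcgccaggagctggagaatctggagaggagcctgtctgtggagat
LEF1: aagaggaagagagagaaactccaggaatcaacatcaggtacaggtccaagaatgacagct

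Each probe is 60 bases long. On the canFam2 build the WIF1 probe lay at chr10:10651319-10651378 on the minus strand, RSPO3 at chr1:68948835-68948894 on the plus strand and FZD10 at chr26:4914361-4914420 on the minus strand. The WNT5B probe lay at chr27:46708396-46708455 and the WNT10B probe on the same chromosome at chr27:8614537-8614593, both on the plus strand. WNT7B lay at chr10:23262904-23262963 on the plus strand and DKK3 at chr21:38221695-38221754 on the minus strand. The LEF1 probe spanned chr32:31450482-31451188 on the minus strand, more than its own length. The WNT5B and WNT10B probes both held 5 cysteine codons and ended in a stop codon, and 35 of their 60 bases were identical in place. The WNT7B probe held 6 cysteine codons and the WIF1 probe 4.

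All arrays were scanned on 1 day, and between 30280 and 34538 probes per array were well above background. Wild type tumors 1 and 2 were very alike (Pearson r = 0.987 over probes), against 0.935 to 0.966 in the other pairs. The arrays lay on 5 slides, and only the slide with deleted tumors 2 and 3 and wild type tumor 2 held both groups. COL1A1, which codes for the main bone collagen, was between 14.1 and 15.9 (log2 intensity) in all tumors. The osteoblast markers ALPL and BGLAP ran from 12.54 to 16.55 and from 9.75 to 14.19. These values do not test the tissue label, because no other tissue was measured. The array's DLG2 probe was 10.79 ± 0.47 (SD, n = 4) in the deleted and 11.56 ± 0.58 (SD, n = 3) in the wild type tumors, and the groups overlapped. Whether that probe lies in the deleted segment was not analysed here.

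In the values used here, the secreted antagonists differed most from tumor to tumor. The range of a gene is its highest minus its lowest tumor on the log2 scale, a quantity that makes no use of DLG2 status. It was above 2 for 7 of the 35 genes with a kept probe, namely WIF1, SFRP2, DKK3, DKK2, LEF1, WNT5B and RSPO3, and 6.52% of all 32309 kept probes passed that size. The first 4 of these are antagonists by name and family. Among the 8 antagonists with a kept probe the median range was 2.29, among the other 27 genes it was 0.80, and over all kept probes it was 0.73. These are descriptions of the 7 tumors and were not tested.

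**Figure D1:**
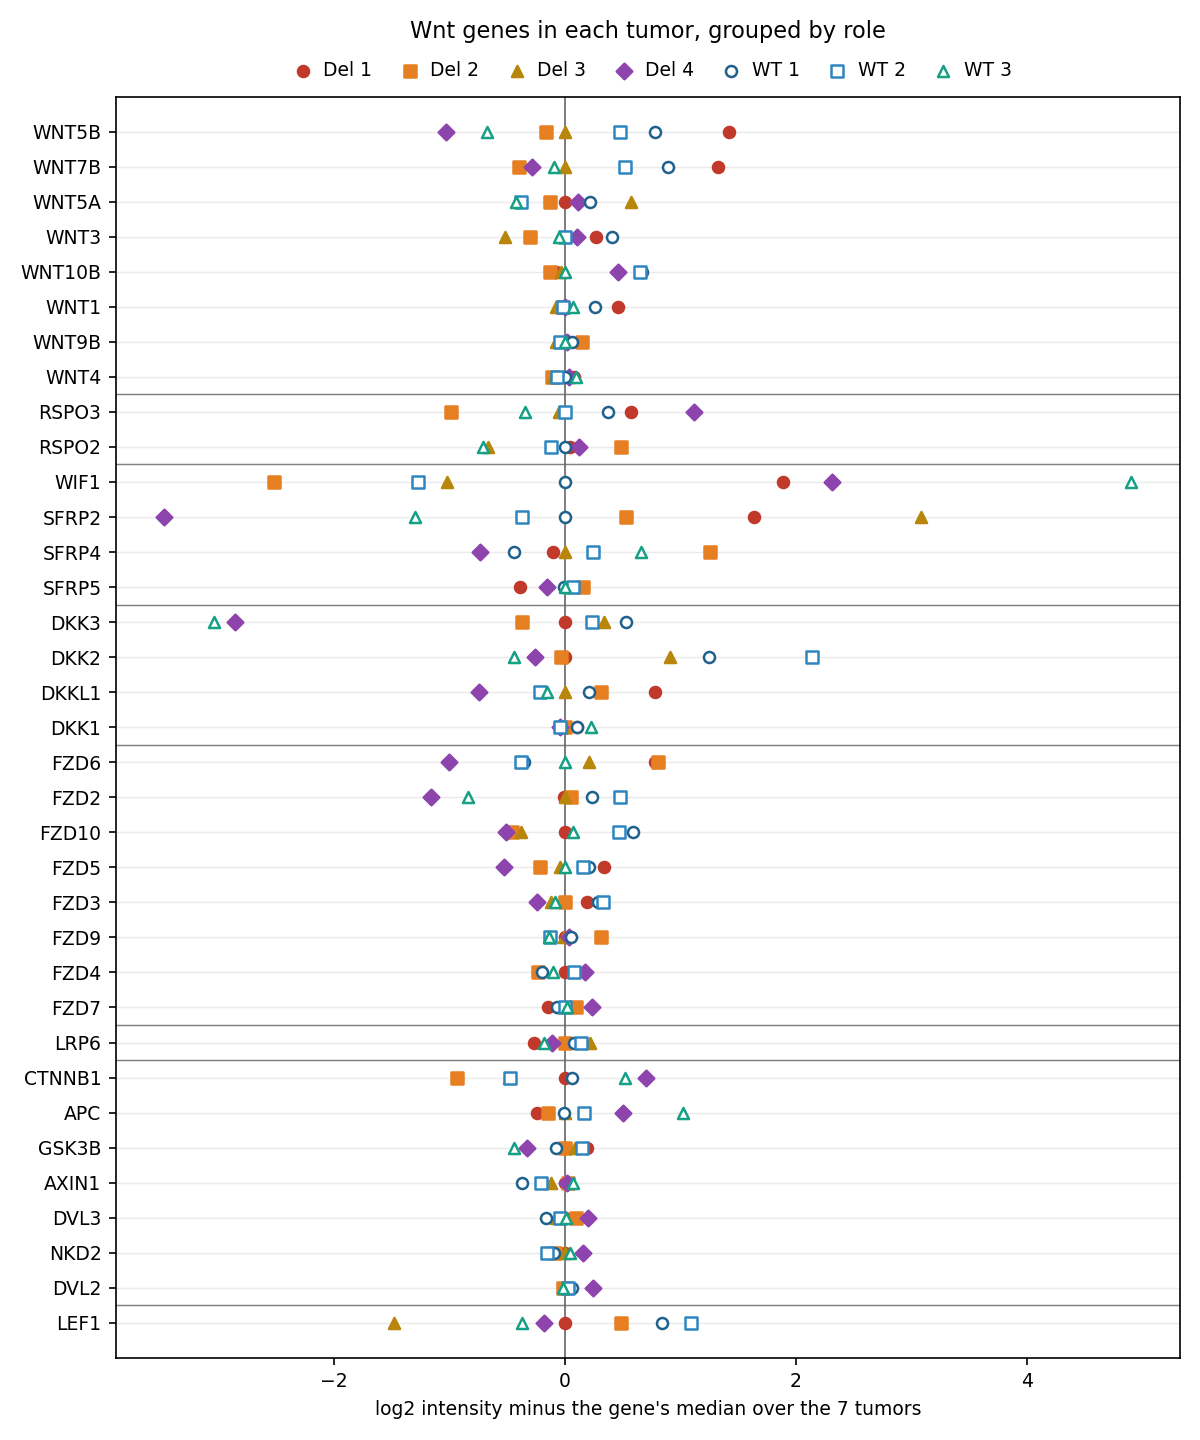
Log2 intensity of each Wnt gene in each tumor, as the distance from the gene's median over the 7 tumors (x axis), with 1 row per gene and lines between roles: ligands, R-spondins, antagonists that bind ligands, DKK family, receptors, co-receptor, transducers and LEF1. Filled symbols are the 4 deleted tumors and open symbols the 3 wild type tumors. WIF1 and SFRP2 spread over 7.43 and 6.55 log2 units, and deleted tumor 4 lies beside wild type tumor 3 at the low end of DKK3.

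WIF1 codes for a secreted protein that binds Wnt ligands. Its log2 intensity was 11.70, 7.29, 8.78 and 12.12 in deleted tumors 1 to 4 and 9.81, 8.53 and 14.71 in wild type tumors 1 to 3. The lowest and the highest tumor differed by 7.43, or 172-fold, and both groups held high and low tumors. Without wild type tumor 3, the highest, the range was still 4.83. The WIF1 range was at the 99.98th percentile of all kept probes.

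SFRP2, another secreted ligand binder, was 13.28, 12.17, 14.73 and 8.18 in the deleted tumors and 11.65, 11.28 and 10.35 in the wild type tumors. Its range of 6.55 (93.8-fold) was the second largest of the members, and the lowest and the highest tumor were both deleted. The wild type tumors lay inside the span of the deleted ones. Without deleted tumor 4 the range was 4.38.

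SFRP4 and SFRP5, of the same family, varied less. SFRP4 was 11.15, 12.51, 11.26 and 10.52 in the deleted tumors and 10.82, 11.50 and 11.91 in the wild type tumors, a range of 2.00 that fell just short of the limit of 2. Deleted tumor 2 was the highest on both SFRP4 probes. SFRP5 had a range of 0.55, below the median over all kept probes.

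FRZB, also called SFRP3, is a further ligand binder. The files carry it under LOC478827 and name it only in the probe description, so it stood outside the naming rule. Its brighter probe was 7.93, 8.14, 9.57 and 10.71 in the deleted tumors and 10.16, 9.99 and 6.82 in the wild type tumors. The range was 3.89 on this probe and 4.04 on a second, overlapping probe. Another kept LOC478827 probe, well above background in the 3 wild type tumors alone, had a range of 0.21, and the last one was well above background in 0 tumors. Wild type tumor 3, the highest in WIF1, was the lowest in FRZB. SFRP1, also named by description only, had a range of 0.76.

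DKK3 belongs to the Dickkopf family but is not known as a classical co-receptor blocker. Its brightest probe was 10.77, 10.40, 11.12 and 7.92 in the deleted tumors and 11.31, 11.01 and 7.73 in the wild type tumors. Deleted tumor 4 and wild type tumor 3 were the low pair, and the other 5 tumors lay within 10.40 to 11.31. The same pair was lowest on all 3 DKK3 probes, with ranges of 3.57, 1.15 and 1.17. The printed DKK3 probe is the second of these. The brightest one lies further along the minus strand, at chr21:38220375-38220434.

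DKK2, a co-receptor antagonist, was 7.13, 7.10, 8.04 and 6.88 in the deleted tumors and 8.38, 9.27 and 6.69 in the wild type tumors. Wild type tumors 1 and 2 were the highest and wild type tumor 3 the lowest of all. DKK1 is the best known member, and the coordinates given for its probe span 176892 bases, against a probe length of 60. Whether that probe measures DKK1 was not tested. It was well above background in 1 deleted and 2 wild type tumors only. Its values lay between 6.51 and 6.77, and a range of 0.26 this close to the floor says little, since the offset added before the log compresses dim probes. DKKL1, a relative known from the testis, had a range of 1.52 on its brighter probe and 0.72 on its dimmer one. Deleted minus wild type was 0.14 on the brighter probe. It was -0.35 on the dimmer one (limma, unadjusted p = 0.049, adjusted p = 0.68), where the groups overlapped. KREMEN1, a receptor for DKK proteins, was well above background in 1 tumor, and SOST, the osteocyte product sclerostin, in 2 tumors, both wild type. DKK4 was well above background in 0 tumors.

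**Figure D2:**
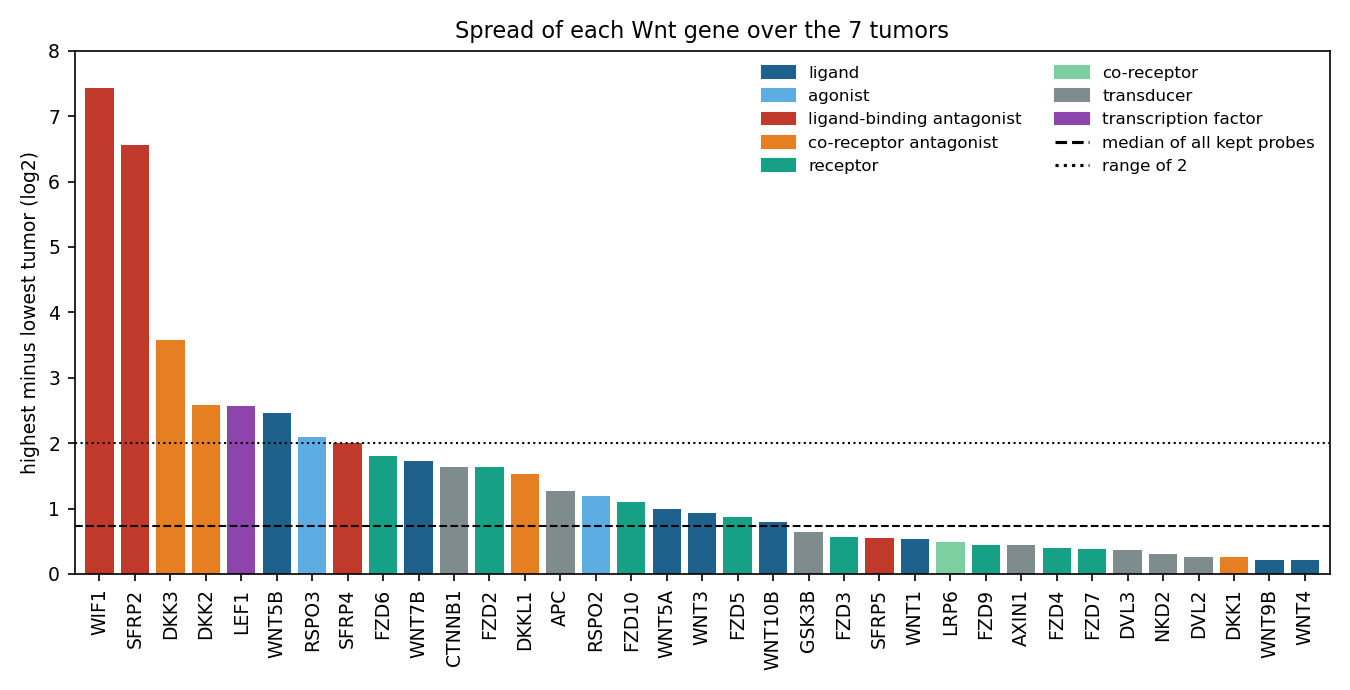
Range of each Wnt gene over the 7 tumors, highest minus lowest log2 intensity (y axis), with genes on the x axis from the largest to the smallest and bars colored by role. The dashed line is the median range of all kept probes (0.73), the dotted line the size of 2, which WIF1, SFRP2, DKK3, DKK2, LEF1, WNT5B and RSPO3 passed.

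Ligands were led by WNT5B, which activates branches that do not need beta-catenin. WNT5B was 9.47, 7.88, 8.04 and 7.02 in the deleted tumors and 8.82, 8.52 and 7.37 in the wild type tumors. Deleted tumor 1 was the highest and deleted tumor 4 the lowest. WNT5A, its close relative, was 13.68, 13.55, 14.26 and 13.80 in the deleted tumors and 13.90, 13.30 and 13.26 in the wild type tumors, a range of 0.99. Every tumor held WNT5A signal well above background, and so did every tumor for WNT5B.

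WNT7B, a ligand of the canonical branch that acts in bone, was 8.97, 7.24, 7.64 and 7.35 in the deleted tumors and 8.53, 8.16 and 7.54 in the wild type tumors. WNT10B, which favors bone over fat formation, was 6.63, 6.58, 6.67 and 7.17 in the deleted tumors and 7.38, 7.36 and 6.71 in the wild type tumors. It was well above background in 3 deleted and 3 wild type tumors. The remaining ligands with a kept probe, WNT1, WNT3, WNT4 and WNT9B, had ranges from 0.21 to 0.93. WNT3A, WNT6 and WNT8B were well above background in 0 tumors, WNT7A in 1, and WNT11 and WNT16 in 2 each.

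RSPO3, an R-spondin, was 8.51, 6.95, 7.88 and 9.05 in the deleted tumors and 8.31, 7.93 and 7.58 in the wild type tumors. The lowest and the highest tumor were both deleted. RSPO2 was 7.40, 7.85, 6.69 and 7.49 in the deleted tumors and 7.36, 7.24 and 6.65 in the wild type tumors, a range of 1.19. RSPO1 was well above background in 1 tumor.

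Receptors showed smaller ranges in the values used here, and 0 of 8 passed 2. FZD6 was 8.73, 8.76, 8.16 and 6.95 in the deleted tumors and 7.60, 7.57 and 7.95 in the wild type tumors, and its second probe had the same lowest tumor. FZD2 was lowest in deleted tumor 4 (9.17) and wild type tumor 3 (9.49), with the other tumors at 10.32 to 10.80. FZD1, named by description only and so outside the rule, was between 8.40 and 9.18 in 6 tumors and 6.90 in wild type tumor 3. FZD3, well above background in 1 deleted and 2 wild type tumors, ran from 6.35 to 6.92. LRP6, the only co-receptor with a kept probe, ran from 7.70 to 8.18. LRP5, AXIN2 and the TCF7 family were not analysed here, because no noncontrol probe carried those gene names. The receptor ranges depended on the processing. With the processed signal, FZD3, FZD4, FZD6 and FZD10 passed 2 under either scaling, beside 27.4% and 26.2% of all kept probes. With the 75th percentile, FZD3 then ranged over 4.33 and FZD10 over 3.81, above 2.065 for SFRP4. With normexp and the 75th percentile FZD7 passed 2 as well, beside 39.4% of all kept probes.

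In the values used here, the transducers varied little, apart from CTNNB1 and APC. CTNNB1 was 14.76, 13.83, 14.28 and 15.47 in the deleted tumors and 14.83, 14.29 and 15.28 in the wild type tumors on its brightest probe. Deleted tumor 4 and wild type tumor 3 were the 2 highest tumors on all 4 CTNNB1 probes, whose ranges were 1.64, 1.82, 2.32 and 0.95. APC, a scaffold of the destruction complex, was 11.04, 11.13, 11.28 and 11.79 in the deleted tumors and 11.28, 11.45 and 12.31 in the wild type tumors on its brightest probe. The other 4 APC probes had another order, with deleted tumor 1 the highest on each of them. GSK3B, the kinase of that complex, had a range of 0.64, and AXIN1, DVL2, DVL3 and NKD2 had ranges from 0.26 to 0.44. The DVL2 and NKD2 probes were dim, with means of 6.82 and 6.85, where the offset compresses ranges. DVL1 was well above background in 0 tumors. The transducer ranges also depended on the processing. With the processed signal and the 75th percentile, CTNNB1 ranged over 1.58 and APC over 1.33, beside a median of 1.43 over all kept probes. With normexp and the 75th percentile, APC, CTNNB1, DVL2 and NKD2 passed 2, beside 39.4% of all kept probes.

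LEF1, a DNA-binding partner of beta-catenin, was 9.52, 10.01, 8.04 and 9.34 in the deleted tumors and 10.36, 10.61 and 9.15 in the wild type tumors on its brighter probe, a range of 2.57. Deleted tumor 3 was the lowest, and wild type tumor 3 the next. The printed LEF1 probe had a range of 0.74 and its lowest values in wild type tumor 3 and deleted tumor 3, both at 6.80. The brighter probe lies further along the minus strand, at chr32:31437584-31437643.

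Deleted tumor 4 and wild type tumor 3 were both below or both above all other tumors in 10 of the 35 genes. They were the lowest 2 for DKK2, DKK3, FZD2, GSK3B, SFRP2 and WNT5B, and the highest 2 for APC, CTNNB1, NKD2 and WIF1. NKD2 was dim and had a range of only 0.31, with wild type tumor 3 at 6.91 and deleted tumor 3 close behind at 6.88. For GSK3B and APC the pattern was seen on the brightest probe alone. On the other GSK3B probes deleted tumor 4 lay above wild type tumor 1, at 11.16 against 11.04 and at 8.65 against 8.34. The pair lay below or above all other tumors in 15.5% of all kept probes, and it was picked after its values were seen. The 2 tumors carry opposite DLG2 labels and lay on different slides. Image feature extraction was run before noon for deleted tumor 4 and after noon for wild type tumor 3. These times are not batches of RNA extraction.

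Osteoblast markers moved with part of this pattern. Of the 9 osteoblast markers listed, 5 had a kept probe, and their mean log2 intensity was 13.62, 12.26, 12.91 and 14.24 in the deleted tumors and 13.91, 13.39 and 14.43 in the wild type tumors. ALPL, the bone alkaline phosphatase, was 14.85, 12.54, 12.78 and 16.55 in the deleted tumors and 15.37, 14.58 and 16.40 in the wild type tumors. BGLAP, or osteocalcin, was 11.09, 9.75, 10.38 and 12.40 in the deleted tumors and 12.22, 10.64 and 14.19 in the wild type tumors. Deleted tumor 4 and wild type tumor 3 were the 2 highest in ALPL, BGLAP and WIF1, and deleted tumor 2 was the lowest in all 3. The same held for RUNX2, a bone transcription factor, at 8.69 and 8.78 in the high pair and 7.92 in deleted tumor 2. The collagen genes COL1A1 and COL1A2 were also lowest in deleted tumor 2, but wild type tumor 3 was the next lowest in both, at 15.22 and 17.56. The part of osteoblast content in these values was not tested.

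**Figure D3:**
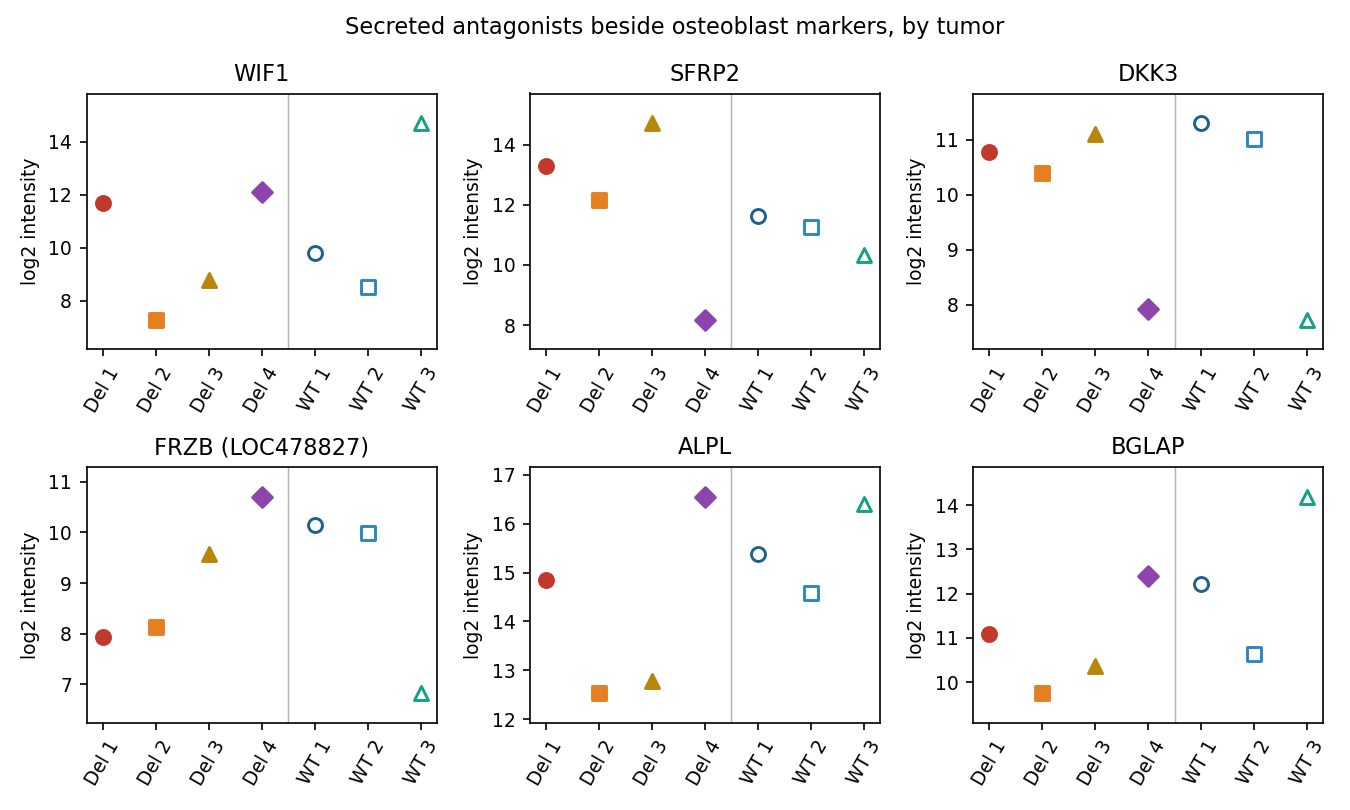
Log2 intensity (y axis, a scale of its own in each panel) of WIF1, SFRP2, DKK3 and FRZB and of the osteoblast markers ALPL and BGLAP in the 4 deleted (filled) and 3 wild type (open) tumors. Deleted tumor 4 and wild type tumor 3 are high in WIF1, ALPL and BGLAP and low in DKK3 and SFRP2.

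Other cell types also differed between tumors. The mean of 6 adipocyte markers was 10.08 in deleted tumor 4, the lowest tumor of SFRP2 and WNT5B, against 7.23 to 7.43 in the other tumors. Of these 6, 5 were highest in deleted tumor 4, but LEP was lowest there (7.96). The 7 endothelial markers were all highest in deleted tumor 3, the highest tumor of SFRP2 and the lowest of LEF1. The mean of 6 osteoclast markers was 13.17 in wild type tumor 3, against 9.47 to 11.34 elsewhere. For 8 cartilage markers the mean was 10.46 and 10.17 in deleted tumors 2 and 3, against 7.87 to 8.69 elsewhere. Of these 8, 5 were highest in deleted tumor 2 and COL2A1 in deleted tumor 3 (15.13). COMP was highest in deleted tumor 1 (14.53) and CHAD in deleted tumor 4 (8.82). The mean of 9 leukocyte markers ran from 7.94 to 9.07, of 3 osteocyte markers from 7.33 to 8.78, of 6 skeletal muscle markers from 7.08 to 7.87 and of 7 pericyte and smooth muscle markers from 7.58 to 8.35. The part of these cell types in the Wnt values was not tested.

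The study compared deleted with wild type tumors to find expression changes that go with DLG2 loss. With limma, 0 of the 35 Wnt genes were called at an unadjusted p below 0.05 and a Benjamini-Hochberg adjusted p below 0.1, as were 0% of all kept probes. By the brightest probe of each gene, 1 Wnt gene, FZD10, stood at an unadjusted p below 0.05, against 7.27% of all kept probes. The methods' t-test on the same values also gave 1. The median difference of the 35 genes, deleted minus wild type, was -0.03 on the log2 scale, beside 0.004 over all kept probes. Of the 35 genes, 16 were higher and 19 lower in the deleted tumors before any test. A missed threshold in 4 against 3 tumors does not show that the groups were alike.

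FZD10, a Frizzled receptor found in few adult tissues, was 7.25, 6.79, 6.87 and 6.74 in the deleted tumors and 7.84, 7.71 and 7.32 in the wild type tumors. All deleted tumors lay below all wild type tumors, with deleted tumor 1 and wild type tumor 3 the closest. The difference was -0.71 with a standard error of 0.18 (limma, unadjusted p = 0.0055, adjusted p = 0.50). Of all kept probes, 4.18% stood at an unadjusted p below 0.05 with lower values in the deleted tumors. On the slide that held both groups the difference was -0.89. With age as a term it was -0.49 (limma, unadjusted p = 0.070). The wild type dogs were 12, 10 and 8 years old and the deleted ones 8, 9, 6 and 7. The size of the FZD10 difference depended on the background correction and on the scaling. With the processed signal it was -2.05 under quantile normalization and -2.17 under the 75th percentile. With normexp and the 75th percentile it was -0.31 (limma, unadjusted p = 0.55), and the groups overlapped.

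FZD10 was the only Wnt gene whose groups did not overlap, against 8.15% of all kept probes in either direction and 4.25% in this one. Leaving out a tumor makes groups without overlap more common for every probe. Leaving out wild type tumor 3 raised the number of Wnt genes without overlap to 8 (AXIN1, DKK2, FZD2, FZD3, FZD10, LEF1, NKD2 and WNT10B) and the number at an unadjusted p below 0.05 to 4, beside 19.1% and 7.93% of all kept probes. Leaving out deleted tumor 4 raised both numbers to 4, with FZD6, FZD10, SFRP2 and WNT10B in each case, beside 15.4% and 9.25%. Without deleted tumor 1 they were 2 and 3, beside 13.5% and 7.86%, and without wild type tumor 1 they were 3 and 2, beside 12.3% and 4.41%. Without deleted tumor 3 they were 2 and 1, beside 12.6% and 6.93%, and without wild type tumor 2 also 2 and 1, beside 13.7% and 4.83%. The number of Wnt genes called stayed at 0 each time.

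The genes with the largest ranges also had the widest errors. WIF1 differed by -1.05 with a standard error of 1.79 (limma, adjusted p = 0.94) and SFRP2 by 1.0 with a standard error of 1.45 (adjusted p = 0.93). Without wild type tumor 3 the WIF1 difference turned to 0.80, and without deleted tumor 4 the SFRP2 difference was 2.30. DKK3 differed by 0.04 with a standard error of 1.10, and by -1.10 without wild type tumor 3. LEF1 differed by -0.82 with a standard error of 0.54 and DKK2 by -0.83 with a standard error of 0.61, with adjusted p-values of 0.83 and 0.86 in limma. The LEF1 difference was -1.59 on the shared slide, 0.24 with age as a term, -0.42 without deleted tumor 3, -0.53 without wild type tumor 2, -1.26 without wild type tumor 3 and -0.13 on the second probe. The DKK2 difference was -1.70 on the shared slide, -0.43 with age as a term, -0.25 without wild type tumor 2 and -1.54 without wild type tumor 3.

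**Figure D4:**
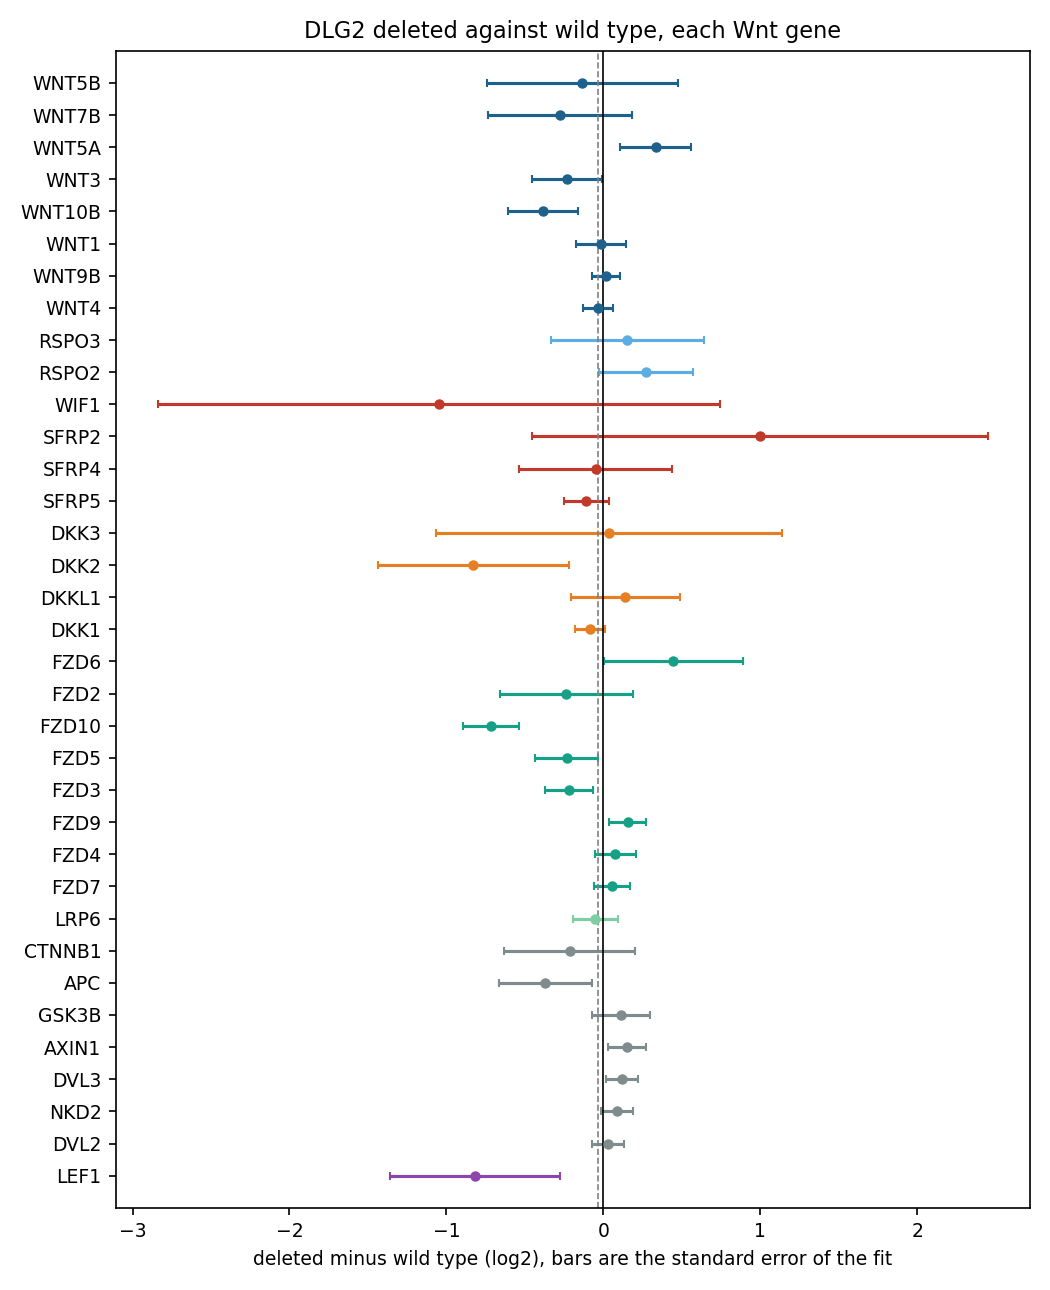
Difference between DLG2 deleted and wild type tumors for each Wnt gene (x axis, log2, deleted minus wild type) with the standard error of the limma fit as bars, genes in rows by role and colored by role as in the plot of ranges. The dashed line is the median over the 35 genes (-0.03). The bars of WIF1, SFRP2 and DKK3 are the widest and cross 0, and FZD10 lies at -0.71.

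The remaining members with the smallest p-values showed small differences. WNT10B differed by -0.38, WNT5A by 0.34, FZD3 by -0.22, FZD9 by 0.15, APC by -0.37, AXIN1 by 0.15 and DVL3 by 0.12, with unadjusted p-values from 0.13 to 0.29 in limma. CTNNB1 differed by -0.21 on its brightest probe, and its other 3 probes gave 0.00, 0.32 and -0.08. For WNT10B, FZD3 and WNT5A the sign turned when each array was centred on its 75th percentile in place of quantile normalization, which moved the median difference of all kept probes to 0.32.

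Other genes of the pathway were taken from 5 lists. Of 108 such genes with a kept probe, 0 were called and 4 stood at an unadjusted p below 0.05, with 2 higher and 2 lower in the deleted tumors, beside 7.27% of all kept probes. The methods' t-test gave 2. The genes at that p are given as values, and 0 of them passed the adjusted p. The median difference was -0.001. WISP2, a gene induced by Wnt signaling, was 8.96, 9.27, 8.82 and 8.13 in the deleted tumors and 7.94, 7.40 and 7.65 in the wild type tumors. All deleted tumors lay above all wild type tumors, and the difference was 1.13 with a standard error of 0.28 (limma, unadjusted p = 0.0051). PYGO2, a nuclear partner of beta-catenin, was 7.86, 8.25, 7.93 and 8.08 in the deleted tumors and 8.33, 8.90 and 8.95 in the wild type tumors, a difference of -0.70 without overlap. RUVBL2, a chromatin remodeling helicase that binds beta-catenin, differed by -0.72, and CELSR2, a planar polarity cadherin, by 0.46, with overlap in both. Groups did not overlap for 3 of the 108 genes, beside 8.15% of all kept probes. The third of them was JUN, which differed by 1.41 (limma, unadjusted p = 0.057). The smallest p-values of the remaining lists belonged to NOTUM, an enzyme that inactivates Wnt ligands, with a difference of -0.39, and to PPP2R5A, a phosphatase subunit, with -0.85. Neither passed an unadjusted p of 0.05. Of the 108 genes, 11 had a range above 2, and the median range was 0.90. Without wild type tumor 3 the number at an unadjusted p below 0.05 was 16 in place of 4, beside 7.93% of all kept probes, and without deleted tumor 4 it was 10, beside 9.25%.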

How the data were processed

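RNA of 7 canine osteosarcomas was hybridized to Agilent Canine V2 arrays, 1 array per tumor, and groups were taken from the labels. Replicate numbers only name tumors. Per the file headers, each deposited file gives the mean spot intensity, the local background intensity and a processed intensity on a linear scale, written by Agilent Feature Extraction 10.7.3.1 according to the submitters' processing notes. The deposited flag columns mark, as other values, outlier spots and spots well above background. For their own analysis the authors used multi-array average normalization followed by correction for a batch, which is not given in the sources used here.

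The mean spot intensity was background corrected with normexp (saddle, offset 50) in limma 3.58.1 under R 4.3.3, put on the log2 scale and quantile normalized. The offset compresses dim probes. Control spots and 144 outlier values were left out, and spots of a probe were averaged, which gave 43603 probes. Kept were the 32309 probes well above background on 3 arrays or more. The kept probe with the highest mean stood for a gene, and other probes of that gene were compared with it. Groups were compared with limma (lmFit and eBayes, two-sided, no covariates) over all kept probes, with Benjamini-Hochberg adjustment. The number of arrays limits the precision, and 0 spots were saturated.

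The members and lists were chosen with earlier results of these data known. Named with values were the 10 members with the smallest p, the 10 with the largest range, a fixed list of well known Wnt genes, and members with no kept probe. From the pathway lists, the gene with the smallest p of each was named, and genes below an unadjusted p of 0.05 were named because a count turned on them. Alternatives covered the background correction, the scaling, the filter on dim probes, each tumor left out, wild type tumors 1 and 2 as 1 tumor, slide, extraction session, sex label or age as a term, the methods' t-test, the mean over probes, and RefSeq names (assembly UU_Cfam_GSD_1.0). The extraction session was the time of image feature extraction, before or after noon, and not a batch of RNA extraction. Adding names from the probe descriptions, and the methods' t-test for the pathway genes, were chosen after seeing the data. Coordinates are those of the files, on canFam2, and exon annotation was not used here.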

Additional observations from a re-analysis of the deposited data

Results flagged for a closer look

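Among the 4 deleted tumors, 1 stood apart in 2 of the 23 named Wnt genes by Dixon's test at the 95% level. Chance alone marks about 1 in 20 groups. FZD9, a Frizzled receptor, was 7.49 in deleted tumor 2, against 7.18 to 7.22 in the other 3, and its gap was 0.88 of the range. WNT10B was 7.17 in deleted tumor 4, against 6.58 to 6.67 in the other 3, and its gap was 0.84 of the range. The wild type tumors were at 7.38, 7.36 and 6.71, so that the WNT10B value of deleted tumor 4 lay between wild type tumors 2 and 3. Deleted tumor 4 was also the tumor with the highest mean of the adipocyte markers, whose part in the WNT10B value was not tested.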

How the results depend on the processing

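The number of Wnt genes called was 0 under every alternative run. The number of probes called over the whole array was 10 with the processed signal centred on the 75th percentile, 4 with the processed signal and quantile normalization, 23 with normexp and the 75th percentile, 0 to 46 when each tumor was left out in turn, with 46 without wild type tumor 3, and 0 otherwise. Wnt genes at an unadjusted p below 0.05 numbered 0 with normexp and the 75th percentile, 3 with slide as a block, 2 with age as a term (APC and RSPO2) and 1 to 4 when each tumor was left out. The share of all kept probes at that p was 3.36% with normexp and the 75th percentile and 6.07% with age as a term. Wnt genes without overlap numbered 5 with normexp and the 75th percentile, beside 17.7% of all kept probes. They numbered 2 with wild type tumors 1 and 2 as 1 tumor, beside 12.6%, and 1 to 8 when each tumor was left out. The other pathway genes at an unadjusted p below 0.05 numbered 12 with slide as a block, 7 with age as a term, 2 with the methods' t-test and 4 to 16 when each tumor was left out. The share of all kept probes at that p was 4.25%, 6.07% and 6.92% under the first 3 of these. The number of Wnt genes with a range above 2 was 17 with the processed signal and the 75th percentile, 16 with it and quantile normalization, and 23 with normexp and the 75th percentile. The share of all kept probes above that size was then 27.4%, 26.2% and 39.4%. WIF1 and SFRP2 remained the first and second of the members by range under all of these, with ranges of 7.43 to 8.84 and 6.55 to 7.43. DKK2 and DKK3 took ranks 3 and 4 each time. With the processed signal, FZD3 was at rank 5 and SFRP4 at rank 17 (75th percentile) and 15 (quantile normalization). Adding RefSeq names gave 8 genes with a range above 2, and adding description names 9. The cause of these changes was not tested.

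Of 411 recomputed differences of the 23 named genes, 42 changed sign, and 9 genes kept their sign throughout. With normexp and the 75th percentile the sign turned for DKK1 (0.69), DKK3 (-0.19), FZD3 (0.54), GSK3B (-0.19), LRP6 (0.23), WNT10B (0.29) and WNT5A (-0.022). SFRP4 turned with the processed signal, to 0.060 with the 75th percentile and 0.012 with quantile normalization. With slide as a block, which rests on the 1 shared slide, it turned for DKK1 (0.031), DKK3 (-0.25), GSK3B (-0.11), RSPO3 (-0.52) and SFRP4 (0.39). With the extraction session it turned for DKK3 (-0.043), WIF1 (0.19), WNT5B (0.18) and WNT7B (0.040). With age it turned for LEF1 (0.24), WNT5B (0.61) and WNT7B (0.14). With the mean over probes it turned for CTNNB1 (0.0055) and SFRP4 (0.065), and with wild type tumors 1 and 2 as 1 tumor for WNT5B (0.081). When each tumor was left out, the difference ran from -0.51 to 0.037 for CTNNB1, -1.10 to 0.75 for DKK3, -0.048 to 0.25 for GSK3B, -0.15 to 0.026 for LRP6, -0.16 to 0.54 for RSPO3, -0.43 to 0.23 for SFRP4, -2.29 to 0.80 for WIF1 and -0.59 to 0.23 for WNT5B. No paired analysis was possible because the replicate numbers are in accession order and pair nothing.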
